A study of Homo sapiens with 31 samples.

Results

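Untreated tumours of the cyclophosphamide-resistant PC3 clone D4 were compared with untreated tumours of the sensitive clone A3. The arrays were taken by title from the deposited table, which gave 7 of the 31 arrays: 4 of D4 (replicates 1, 2, 4 and 5) and 3 of A3 (replicates 1, 2 and 4). PC3 is a long-established line of human prostate cancer cells. Both clones were re-isolated from PC3 after passage in animals, cultured again, implanted again and grown as xenografts, and the arrays compared here are those of control tumours that received no drug. The labels call A3 sensitive and D4 resistant to cyclophosphamide (CPA), whereas the unpassaged parental line (wt) is called sensitive and a further clone, D3, resistant. In the treated groups, used below as separate arrays of the same clones, tumours received CPA at 120 mg/kg intraperitoneally once they had reached a mean of 30 mm3. Each line is a single clone, so resistance cannot be told apart from any other difference between D4 and A3. Whether every array stands for its own animal is not stated in the labels, so p-values here reflect only how much these samples vary, and some of that variation may be technical.

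Cyclophosphamide is a prodrug that liver cytochrome P450 enzymes activate, and its product crosslinks DNA. Cells can withstand such agents by conjugating them to glutathione, by oxidising the aldehyde intermediate with aldehyde dehydrogenases, by repairing the crosslinks or by resisting apoptosis. Low doses given repeatedly without long breaks, the metronomic schedule of this series, also act on the blood vessels of a tumour, and tumour cells influence those vessels through secreted factors such as VEGFA, thrombospondin and tissue factor.

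The arrays were Affymetrix Human Gene 1.0 ST, and values are log2 expression levels made by the submitters with RMA, so a difference of 1 is a doubling of signal. Replicate arrays correlated across genes at 0.987 to 0.995 in A3 and at 0.985 to 0.995 in D4, and A3 arrays correlated with D4 arrays at 0.982 to 0.993. The first principal component of the 7 arrays carried 38.6% of the variance and did not separate the clones. It set A3 replicate 2 (14.4), D4 replicate 1 (17.8) and D4 replicate 4 (18.8) against the other 4 arrays, which lay between -21.2 and -4.33. The second component carried 24.1%.

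**Figure D1:**
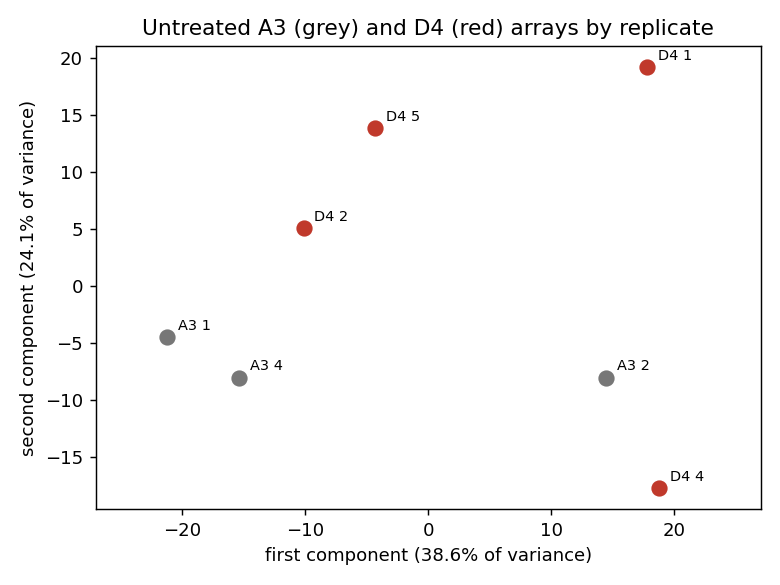
Scores of the 7 untreated arrays on the first (x) and second (y) principal component over all genes, without units; grey points are A3 and red points D4, each labelled with its replicate number. A3 replicate 2 and D4 replicates 1 and 4 lie on the right, and the other 4 arrays on the left.

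The tumours carried the PC3 markers measured here. KRT8 averaged 9.49 in A3 and 10.1 in D4, KRT18 10.0 in both, VIM 11.3 and 11.4, and CD44 10.6 and 10.4. The prostate secretory genes KLK3 (5.97 and 5.93) and KLK2 (5.85 and 5.99) did not pass the test of D4 against A3, and their presence was not tested.

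Of 17314 genes tested, 653 differed between untreated D4 and A3 (3.77%). In D4 303 of them were higher (1.75%) and 350 lower (2.02%). Differences were small: the median size among called genes was 0.42, a 1.33-fold difference, and 14 genes (0.0809%) reached 2-fold, 5 of them higher and 9 lower. Called means an adjusted p under 0.05 in a limma fit of all 31 arrays, and the median standard error of a difference was 0.11. In 586 of the called genes the 4 D4 arrays all lay beyond the 3 A3 arrays, against 1666 of all 17314 genes (9.62%), 762 higher (4.40%) and 904 lower (5.22%). The calls rest on the same arrays, so this lack of overlap largely follows from them and is no separate support. With only the 7 arrays in the fit 67 genes were called, all of them among the 653, and without the 3 arrays named above 429 were called. After a further quantile normalization the split turned to 411 higher and 316 lower.

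The 15 genes farthest above A3 and the 15 farthest below were picked among called genes whose untreated arrays did not overlap. Their lack of overlap in those arrays is therefore given by the choice. Among the 15 farthest above were DHRS2, F3, PLAT and PRSS35. DHRS2 encodes a short-chain dehydrogenase/reductase. It read 6.50, 6.51 and 6.63 on the A3 arrays and 8.56, 8.89, 8.93 and 8.54 on the D4 arrays. The groups did not overlap and differed by 2.18 ± 0.12 (SE), or 4.55-fold (adjusted p 8.43e-14). Tissue factor, encoded by F3, starts blood coagulation. It read 7.21, 7.01 and 6.80 in A3 and 8.35, 9.19, 9.27 and 8.92 in D4. D4 replicate 1 was the lowest of the D4 arrays and still lay above every A3 array, and the difference was 1.92 ± 0.16 (SE), or 3.79-fold (adjusted p 3.12e-09). PLAT, the tissue plasminogen activator, which turns plasminogen into the clot-dissolving protease plasmin, read 9.91, 10.2 and 10.0 in A3 and 10.9, 11.1, 11.1 and 10.8 in D4 (0.96 ± 0.09 SE, adjusted p 2.7e-08). PRSS35, which encodes a secreted protein of the serine protease family, read 6.54, 6.57 and 6.64 in A3 and 7.72, 7.74, 8.01 and 7.79 in D4 (1.23 ± 0.12 SE, adjusted p 2.51e-08). Neither gene had an array of one clone within the range of the other.

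PASD1 belongs to the cancer/testis antigens, which are normally made in the testis. It read 5.68, 5.47 and 5.74 in A3 and 7.24, 7.67, 7.75 and 7.38 in D4 (1.88 ± 0.12 SE, 3.68-fold, adjusted p 2.74e-12). ME1, the cytosolic malic enzyme that makes NADPH, read 8.38, 8.06 and 8.24 against 9.02, 9.20, 9.15 and 9.42 (0.97 ± 0.09 SE, adjusted p 2.51e-08). SLC14A1, a urea transporter, read 6.65, 6.30 and 6.88 against 7.91, 7.81, 8.08 and 7.52 (1.22 ± 0.16 SE, adjusted p 1.05e-05). As the choice required, the lowest D4 array exceeded the highest A3 array in all 3 genes. The chromatin organiser SATB1 averaged 5.51 ± 0.13 (SD, n = 3) in A3 and 6.50 ± 0.15 (SD, n = 4) in D4. The zinc finger genes ZNF626 (0.99 ± 0.13 SE) and ZNF486 (0.95 ± 0.14 SE) were higher too. The other genes of the 15 highest were MPZL2 (0.95), CDC20B (0.95), the cytidine deaminase gene APOBEC3G (0.92), MILR1 (0.92) and CCDC141 (0.88).

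The gene farthest below A3 was NTS, which encodes the peptide neurotensin. It read 9.73, 9.25 and 9.65 in A3 and 6.38, 7.40, 6.90 and 7.05 in D4. The D4 arrays spread widely and yet all lay far under A3, a difference of -2.61 ± 0.24 (SE) or 6.10-fold (adjusted p 1.5e-08). Its receptor genes NTSR1 (-0.08) and NTSR2 (0.06) did not pass. TCN1, a vitamin B12 binding protein, read 9.74, 9.31 and 9.85 in A3 and 8.46, 8.07, 8.31 and 7.86 in D4 (-1.46 ± 0.16 SE, adjusted p 2.35e-07). It was the only gene called among 17 of vitamin B12 and folate handling.

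Several genes of the lower side encode receptors and channels. IL13RA2, a decoy receptor for interleukin 13, read 8.95, 8.41 and 8.74 in A3 and 6.95, 7.35, 6.86 and 7.48 in D4 (-1.54 ± 0.20 SE, adjusted p 1.3e-05). BMPR1B, a bone morphogenetic protein receptor, read 7.89, 7.37 and 7.87 against 6.63, 6.85, 6.44 and 6.57 (-1.09 ± 0.12 SE, adjusted p 8.94e-07). The muscarinic acetylcholine receptor gene CHRM3 read 8.97, 8.89 and 9.03 against 8.14, 8.04, 7.90 and 7.85 (-0.98 ± 0.08 SE, adjusted p 4.58e-09). A3 replicate 2 was the lowest A3 array in all 3 genes and stayed above every D4 array. IL1RAPL1, of the interleukin 1 receptor family, differed by -1.09 ± 0.15 (SE), the potassium channel gene KCNJ6 by -0.98 ± 0.12 (SE) and the sodium channel gene SCN3A by -0.99 ± 0.19 (SE).

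SERPINB7, a clade B serpin, read 7.99, 7.48 and 7.99 in A3 and 6.22, 6.51, 6.73 and 6.22 in D4 (-1.40 ± 0.13 SE, adjusted p 2.51e-08). HCLS1, an actin-regulating protein best known from blood cells, read 7.91, 7.85 and 8.01 against 6.65, 6.69, 6.78 and 6.66 (-1.23 ± 0.12 SE, adjusted p 2.51e-08). Its arrays were tight in both clones, with an SD of 0.08 in A3 and 0.06 in D4. NAV3 (-1.09 ± 0.11 SE), the cyclic nucleotide phosphodiesterase gene PDE3A (-1.07 ± 0.10 SE), PARP8 (adjusted p 1.89e-05) and ELMOD1 (-0.98 ± 0.14 SE) were lower as well. KITLG, which encodes the ligand of the receptor KIT, ranged from 9.21 to 9.80 in A3 and from 7.99 to 9.17 in D4. Its groups nearly touched (-0.93 ± 0.22 SE, adjusted p 0.012). Of the 30 genes with the highest and lowest differences, 27 were called under every setting that held them, and the exceptions were APOBEC3G, KITLG and SCN3A. MPZL2, CDC20B, ELMOD1, APOBEC3G and SCN3A were absent from the setting without the dimmest 30% of genes. CDC20B read 4.34 to 4.77 in A3, against a median level of 7.12 over all genes. With only the 7 arrays in the fit KITLG (adjusted p 0.202) and SCN3A (adjusted p 0.0514) were not called.

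**Figure D2:**
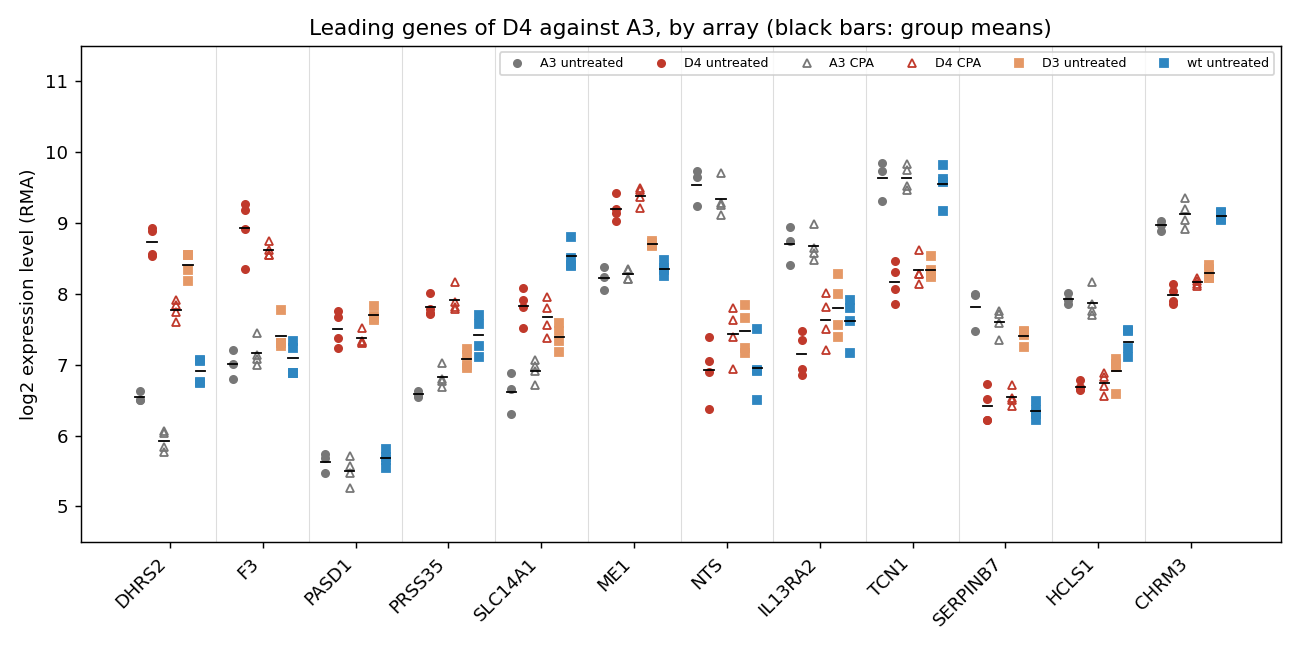
Log2 expression level (y) of 12 of the genes described, 6 higher and 6 lower in D4 (x), with a point for each array and a black bar for each group mean; circles are untreated and triangles CPA-treated tumours of A3 (grey) and D4 (red), and squares are untreated D3 (orange) and wt (blue). For each gene the untreated D4 arrays lie apart from the untreated A3 arrays, as the choice of these genes required. D3 and wt are shown beside them.

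The CPA-treated arrays of the same clones, 4 of each, share no array with this comparison and show how far the difference recurs. There 2143 genes were called between D4 and A3 (12.4%), 1283 higher (7.41%) and 860 lower (4.97%). Of the 653 genes called in untreated tumours, 440 were called the same way with CPA, which is 67.4% of the untreated and 20.5% of the treated calls. They make up 2.54% of all genes tested and comprised 228 higher and 212 lower genes. A further 212 were not called and 1 was called the other way, namely KRT73, a hair follicle keratin gene (0.37 untreated and -0.26 with CPA). The sign was the same in 629 of the 653 genes, and the share of equal signs over all genes was not counted. The treated arrays of D4 and A3 did not overlap, in the same direction, in 449, against 3182 of all 17314 genes in either direction (18.4%).

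Among the 30 genes with the highest and lowest differences, 28 were called the same way with CPA. The exceptions were KITLG (-0.43, adjusted p 0.156) and SCN3A (-0.53, adjusted p 0.0508). PASD1 differed by the same amount (1.87 ± 0.11 SE). DHRS2 was lower in treated tumours of both clones, at 6.07, 6.03, 5.84 and 5.77 in A3 and 7.74, 7.85, 7.91 and 7.61 in D4, and the gap between the clones was 1.85 ± 0.11 (SE). F3 was at most 7.45 in treated A3 and read 8.74, 8.54, 8.63 and 8.55 in treated D4 (1.45 ± 0.15 SE). The treated D4 arrays of F3 stood closer together than the untreated ones, and no array of either clone fell into the other's range. NTS read 9.29, 9.71, 9.11 and 9.26 against 7.80, 7.40, 6.94 and 7.63 (-1.90 ± 0.22 SE). ME1 (1.11 ± 0.09 SE) and ZNF486 (1.71 ± 0.13 SE) were farther apart with CPA than without, and 24 of the 30 were closer together. Since the 30 were picked for large untreated differences, smaller ones in other arrays are partly given by the choice.

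The change of the clone difference with CPA was tested directly, and limma called 0 genes, with 2474 at an unadjusted p under 0.05. The count depended on the arrays and the model: without A3 replicate 2 of the untreated group it was 396, with array weights 375, and with the main residual component as a covariate 1116. The clearest candidates on the rising side were ZNF681 (0.07 untreated and 1.52 with CPA), LRRC70 (-0.20 and 0.75) and CEP85L (-0.16 and 0.48), each with an adjusted p of 0.269. On the falling side they were KRT73 (adjusted p 0.189), HSPB6 (0.17 and -0.43) and the triadin gene TRDN (0.32 and -0.39). ANGPT1, whose product angiopoietin 1 acts on blood vessels, was called in untreated tumours (-0.63 ± 0.16 SE) and differed by 0.00 with CPA, but the change itself did not pass (adjusted p 0.295).

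**Figure D3:**
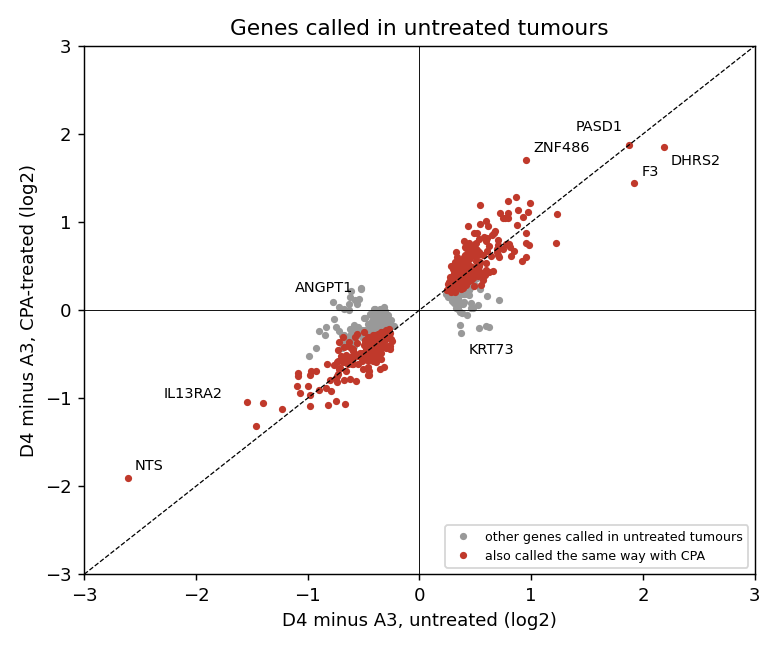
The difference between D4 and A3 in untreated tumours (x, log2) against that in CPA-treated tumours (y, log2) for the 653 genes called in untreated tumours; red points were also called the same way with CPA, grey points were not, and the dashed line marks equal differences. Most points lie in the quadrants of equal sign, 629 of 653, with DHRS2, F3, PASD1 and NTS at the ends.

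The question whether D4 differs from the other resistant clone was tested with D3, and 56 genes were called (0.323%), 16 higher in D4 (0.0924%) and 40 lower (0.231%). This comparison uses the same D4 arrays as the main one. F3 was the gene with the smallest p on the higher side. It averaged 8.93 ± 0.42 (SD, n = 4) in D4, 7.41 in D3, 7.01 in A3 and 7.09 in wt, and D4 exceeded D3 by 1.52 (adjusted p 2.19e-07). PRSS35 (0.74, adjusted p 0.000187), ME1 (0.49, adjusted p 0.00235) and PLAT (0.37, adjusted p 0.0487) were also higher in D4 than in D3. The proteoglycan gene SRGN was higher in D4 than in D3 (0.72) and A3 (0.57). On the lower side were SERPINB7 (-0.98), PARP8 (-0.95), NAV3 (-0.56) and PDE3A (-0.49). D3 itself did not pass against A3 for PARP8 (-0.05, adjusted p 0.969) or SERPINB7 (-0.42, adjusted p 0.104), in a comparison that called 2.27% of all genes, 1.30% as higher and 0.970% as lower. The kinesin gene KIF5C differed by -0.88 from D3 and by -0.66 from A3, and ANKRD30A by -1.59 and -0.52. ZNF711 was lower than in D3 (-1.67, adjusted p 2.58e-06) but not called against A3 (-0.31, adjusted p 0.502). DHRS2 (0.33, adjusted p 0.265), PASD1 (-0.19, adjusted p 0.568), NTS (-0.55, adjusted p 0.413), TCN1 (-0.17, adjusted p 0.705) and HCLS1 (-0.22, adjusted p 0.518) did not pass between D4 and D3.

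Values of the parental line are set beside those of both clones, without a test of overlap since the comparisons share arrays. Against wt 20.1% of all genes were called for D4 (9.22% higher, 10.9% lower) and 18.5% for A3 (10.1% higher, 8.36% lower). For DHRS2 wt averaged 6.91, and D4 differed from it by 1.83 and A3 by -0.36. For PASD1 wt averaged 5.68, D4 was above it by 1.83, and A3 differed from it by -0.05 (adjusted p 0.844). CHRM3, BMPR1B and TCN1 differed by -1.12, -1.10 and -1.38 between D4 and wt, while A3 differed from wt by -0.13, -0.01 and 0.09 with adjusted p from 0.315 to 0.968. NTS lay the other way. It averaged 6.96 in wt and 6.93 in D4 (adjusted p 0.949), and A3 exceeded wt by 2.58. SERPINB7 (6.34 in wt and 6.42 in D4) and SCN3A (4.99 in both) had the same order. SLC14A1 averaged 8.53 in wt, and both D4 (-0.70) and A3 (-1.92) were below it. SATB1 read 6.57 to 6.99 in wt, 6.36 to 6.64 in D4 and at most 5.65 in A3. The wt arrays of ZNF626 (6.30 to 6.69), MPZL2 (5.62 to 6.12), CDC20B (5.54 to 6.03) and CCDC141 (7.54 to 7.78) also overlapped D4 and lay above A3. MILR1 read 9.14 to 9.34 in wt, above every D4 array. PLAT (9.39 to 9.47 in wt) and ME1 (8.25 to 8.48) lay below every D4 array.

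Many of the smaller differences described next depended on the arrays in the fit. Of 127 named genes, not counting runs of neighbours, 102 were called, and with only the 7 arrays in the fit 37 of them were. These were 28 of the 30 genes above and CASP4, IFITM2, CDH3, SEMA3F, TGFB2, CXCL6, NOG, GABRE and MAGEC2. Without the 3 arrays apart on the first component 31 of the 102 were not called. Among the 30 genes above these were APOBEC3G (0.77, adjusted p 0.101) and KITLG (-0.66, adjusted p 0.117). The others were SRXN1, ALDH2, PMAIP1, TNFRSF10A, VEGFA, VEGFC, AARS1, STC2, ASNS, KRT8, EPCAM, DSP, CXCL1, TGFA, NOG, SMAD1, RNF43, TCF7L2, ADGRG2, CLCN4, KCNMA1, SSX1, MAGEA10, ZNF492, SOX2, TFRC, PECAM1, FBLN1 and KRT73. List counts below stand beside the shares over all genes, 1.75% higher and 2.02% lower untreated, and 7.41% and 4.97% with CPA. The untreated called share was 37.5% for sterol synthesis and 25% for glutathione enzymes, against 3.77% of all genes. For hypoxia and glycolysis (3.45%), NRF2 targets (5.26%) and interferon-induced genes (2.7%) it lay near that share. No list was tested as a set.

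Some genes of cholesterol synthesis were lower in D4. This pathway builds sterols from acetyl-CoA under the control of SREBF2, a transcription factor that is activated when membrane cholesterol is low. Of 16 measured members 6 were lower and 0 higher, 10 did not pass, 15 had a negative difference and the median was -0.24, against a median of 0.00 over all genes. MVK, mevalonate kinase, read 8.15, 8.09 and 8.25 in A3 and 7.72, 7.80, 7.99 and 7.50 in D4 (-0.41 ± 0.09 SE, adjusted p 0.00727). D4 replicate 4 came closest to A3, and the groups did not overlap. NSDHL (-0.33 ± 0.08 SE), LSS, which makes lanosterol (-0.45 ± 0.12 SE), and MSMO1 (-0.46 ± 0.12 SE), whose arrays overlapped, were lower as well. SREBF2 itself read 8.89, 9.03 and 9.05 in A3 and 8.36, 8.42, 8.87 and 8.28 in D4 (-0.51 ± 0.14 SE, adjusted p 0.0306). Its D4 replicate 4 almost reached A3. Averaged over the list, the A3 arrays stood at 9.28, 9.12 and 9.35 and the D4 arrays at 9.05, 9.01, 9.07 and 8.82. With CPA 2 members were lower, and against D3 0 were called. For D3 against A3 the list median was -0.32 and 6 members were lower, against 0.970% of all genes. For D4 against wt the median was -0.07 and 4 members were lower, against 10.9% of all genes. Both share arrays with the main comparison. With only the 7 arrays in the fit none of the sterol genes or SREBF2 was called.

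The promoters of the sterol genes were read because 6 members were called in 1 direction. In the 250 bases before the gene start (RefSeq, GRCh38.p14, first listed promoter of each gene) the CCAAT box, bound by the factor NF-Y that acts with SREBF2 at many sterol genes, was searched as the letters CCAAT on both strands. It was present in 11 of 14 sterol genes with a promoter (78.6%), including all 6 of the lower ones, against 34.3% of the 13457 measured genes with a promoter. The letters TCACCCCAC, a sterol regulatory element, searched the same way, were in 0 of the 14 and in SREBF2's own promoter, against 0.349% of all. A match is a description of these letters and not a binding site. Stretches of MVK, NSDHL, MSMO1 and LSS with the box and that of SREBF2 follow, with the matched letters in capitals (ATTGG is CCAAT on the other strand). They lie at chr12:109573574-109573762 on the plus strand (MVK), chrX:152830825-152830993 plus (NSDHL), chr4:165327474-165327649 plus (MSMO1), chr21:46228900-46228944 minus (LSS) and chr22:41832952-41833000 plus (SREBF2), all upstream of their genes.
MVK: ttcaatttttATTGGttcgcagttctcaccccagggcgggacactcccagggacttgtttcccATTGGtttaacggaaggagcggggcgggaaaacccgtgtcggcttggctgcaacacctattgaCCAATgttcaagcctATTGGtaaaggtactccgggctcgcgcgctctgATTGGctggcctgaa
NSDHL: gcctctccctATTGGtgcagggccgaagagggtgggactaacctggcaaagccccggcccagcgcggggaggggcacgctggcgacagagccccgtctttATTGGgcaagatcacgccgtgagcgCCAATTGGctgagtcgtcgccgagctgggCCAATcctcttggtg
MSMO1: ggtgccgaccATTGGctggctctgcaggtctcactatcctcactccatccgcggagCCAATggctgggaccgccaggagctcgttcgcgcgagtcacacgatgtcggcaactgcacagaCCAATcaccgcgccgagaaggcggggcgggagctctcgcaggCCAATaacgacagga
LSS: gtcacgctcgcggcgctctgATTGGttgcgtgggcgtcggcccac
SREBF2: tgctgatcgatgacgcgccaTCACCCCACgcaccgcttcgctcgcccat

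Other lipid genes moved little. Of 15 sterol regulators and uptake genes SREBF2 alone was called, and 11 were negative. Of 15 genes of fatty acid synthesis 1 was lower, GPAM (-0.36 ± 0.10 SE), and 13 were negative, with a median of -0.09.

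Enzymes that handle cyclophosphamide and its products were next. Of 24 glutathione enzymes 6 were lower in D4, 0 were higher and 18 did not pass, with a median of -0.09. Glutathione S-transferases join electrophiles to glutathione. GSTM3 read 8.25, 7.72 and 7.92 in A3 and 6.99, 7.39, 7.68 and 7.15 in D4 (-0.66 ± 0.14 SE, adjusted p 0.0039), with D4 replicate 4 just below A3 replicate 2. GSTM4 (-0.59 ± 0.13 SE), GSTT1 (-0.49 ± 0.11 SE) and GSTM2 (-0.42 ± 0.11 SE) were lower too. The GSTM genes are near-identical neighbours whose probes may read each other. With CPA 4 members were lower and 1 higher, and GSTM3 (-0.59), GSTM4 (-0.44) and GSTT1 (-0.47) were again lower. With only the 7 arrays in the fit none of the 24 was called. Of 17 aldehyde dehydrogenases ALDH2 (-0.42 ± 0.10 SE) and ALDH18A1 (-0.30 ± 0.08 SE) were lower and 0 higher. None of 4 cytochrome P450 genes for CPA (CYP2C8, -0.43, adjusted p 0.136), 11 ABC efflux transporters (ABCB11, 0.38, adjusted p 0.0844) or 31 genes for repair of alkylated and crosslinked DNA (FANCG, -0.30, adjusted p 0.0592) was called. These are the members with the smallest p.

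Of 14 genes that supply NADPH, ME1 was higher and TALDO1, of the pentose phosphate pathway, lower (-0.35 ± 0.07 SE). Of 19 NRF2 targets SRXN1, which repairs oxidised peroxiredoxins, was lower (-0.42 ± 0.10 SE).

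The integrated stress response raises amino acid supply through the factor ATF4. Of its 28 measured genes 4 were higher in D4, 0 lower and 24 did not pass, with a median of 0.09. SLC7A5, a transporter of large neutral amino acids, read 9.65, 9.97 and 9.79 in A3 and 10.2, 10.4, 10.7 and 10.4 in D4 (0.61 ± 0.11 SE, adjusted p 0.00137). The secreted glycoprotein gene STC2 (0.57 ± 0.14 SE), asparagine synthetase (ASNS, 0.42 ± 0.11 SE) and alanyl-tRNA synthetase (AARS1, 0.40 ± 0.09 SE) were higher as well, with no overlap of arrays in any of the 4. STC2 read 8.18 to 8.64 in wt, above every D4 array. SLC7A5 (9.49 to 9.80 in wt), ASNS (8.48 to 8.68) and AARS1 (10.2 to 10.3) lay below every D4 array there. ATF4 itself did not pass (-0.26, adjusted p 0.154). With CPA 9 members were higher and 0 lower, against 7.41% and 4.97% of all genes. In the fit of the 7 arrays alone none was called, and SLC7A5 came closest (adjusted p 0.0954). Without the 3 arrays apart SLC7A5 was called (adjusted p 0.00906), while STC2 (0.36, adjusted p 0.376), AARS1 (0.33, adjusted p 0.125) and ASNS (0.47, adjusted p 0.0755) were not.

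The C/EBP-ATF response element, searched as TGATGNAA on both strands in the same promoter window, was in 4 of 24 stress response genes with a promoter (16.7%), among them ASNS and AARS1, against 2.13% of all measured genes. Both stretches lie upstream of their genes on the minus strand in GRCh38.p14, at chr7:97872449-97872496 (ASNS) and chr16:70289666-70289713 (AARS1), and capitals mark the match, which in AARS1 is on the other strand.
ASNS: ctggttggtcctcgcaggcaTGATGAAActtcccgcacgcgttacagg
AARS1: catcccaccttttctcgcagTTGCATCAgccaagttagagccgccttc

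Chaperones help proteins fold in the endoplasmic reticulum and the cytosol. Of 23 unfolded protein response genes CRELD2 (-0.45 ± 0.09 SE) and SDF2L1 (-0.44 ± 0.11 SE) were lower and 0 higher, and of 14 heat shock genes BAG3 was lower (-0.46 ± 0.10 SE). With only the 7 arrays in the fit no call was left in these 2 lists, nor among the fatty acid, aldehyde dehydrogenase, NRF2, p53, EGF, Wnt, metalloproteinase and host lists described here.

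Among 25 apoptosis regulators 3 were lower and 1 higher. CASP4, an inflammatory caspase, read 7.99, 7.71 and 8.03 in A3 and 7.22, 7.40, 7.06 and 7.21 in D4 (-0.69 ± 0.11 SE, adjusted p 0.000235), with no overlap of the groups. The adaptor gene FADD (-0.36 ± 0.08 SE) and BID, which links death receptors to mitochondria (-0.33 ± 0.08 SE), were lower, and the death receptor gene TNFRSF10A was higher (0.31 ± 0.09 SE). In the fit of the 7 arrays CASP4 alone was called (adjusted p 0.0367), and without the 3 arrays apart 3 members were lower and 0 higher. Of 21 p53 targets PMAIP1, which encodes NOXA, was higher (0.40 ± 0.11 SE) and TP53I3 lower (-0.34 ± 0.08 SE).

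None of 33 mitosis genes was called, although 32 were negative, with a median of -0.15. UBE2C had the smallest p (-0.23, adjusted p 0.203). The list mean read 9.31, 9.08 and 9.33 on the A3 arrays and 9.01, 9.22, 8.83 and 9.20 on the D4 arrays. The low values were those of A3 replicate 2 and D4 replicates 1 and 4, the 3 arrays on 1 side of the first component, and without them 0 members were called as well. With CPA the median was 0.20 and 4 members were called higher, against 7.41% of all genes. None of 39 DNA replication genes was called (MCM3, 0.23, adjusted p 0.052), nor any of 23 oxidative phosphorylation genes, of which 20 were negative with a median of -0.16 (NDUFV1, -0.27, adjusted p 0.0661), nor any of 18 ribosomal protein genes (RPLP2, -0.31, adjusted p 0.143).

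Secreted and adhesion genes followed. In the list of coagulation and plasminogen activation F3 and PLAT were higher and PROS1, the anticoagulant protein S, lower (-0.40 ± 0.10 SE) among 18. Of 26 angiogenesis factors 3 were higher and 3 lower. SEMA3F, a semaphorin that restrains vessel growth, read 7.33, 7.64 and 7.56 in A3 and 8.23, 8.23, 8.50 and 8.04 in D4 (0.74 ± 0.12 SE, adjusted p 0.00026). VEGFA read 7.93, 7.67 and 7.58 against 8.23, 8.24, 8.41 and 7.99 (0.49 ± 0.14 SE), and its adjusted p of 0.0499 was just inside the threshold. It read 8.67, 8.60, 8.63 and 8.22 in wt and 7.68 to 8.05 in D3, whereas SEMA3F read 7.23 to 7.56 in wt. The vessel inhibitor thrombospondin 1 (THBS1) was higher (0.42 ± 0.11 SE), and PDGFD (-0.71 ± 0.14 SE), ANGPT1 and VEGFC (-0.26 ± 0.07 SE) were lower. SEMA3F alone was called with only the 7 arrays (adjusted p 0.0333), and without the 3 arrays apart VEGFA (0.36, adjusted p 0.397) and VEGFC (-0.26, adjusted p 0.16) were not. Of 29 hypoxia and glycolysis genes VEGFA alone was called.

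Of 29 epithelial genes 4 were higher and 0 lower. P-cadherin, CDH3, read 6.58, 6.72 and 6.78 in A3 and 7.40, 7.48, 7.68 and 7.31 in D4 (0.78 ± 0.10 SE, adjusted p 1.61e-05), with every D4 array above every A3 array. KRT8 (0.64 ± 0.13 SE), DSP (0.37 ± 0.10 SE) and EPCAM (0.32 ± 0.08 SE) were the others. DSP read 8.65 to 8.74 in wt, above every D4 array, and CDH3 6.66 to 7.05, below every D4 array. KRT8 (9.79 to 10.2 in wt) and EPCAM (8.56 to 8.96) overlapped D4 there. CDH3 alone was called with only the 7 arrays, and also without the 3 arrays apart, where KRT8 (adjusted p 0.069), DSP (adjusted p 0.0511) and EPCAM (adjusted p 0.216) were not. None of 24 mesenchymal genes was called (CCN1, 0.38, adjusted p 0.131), nor any of 26 collagens and laminins (COL4A6, -0.23, adjusted p 0.0772) or 14 integrins (ITGA6, 0.30, adjusted p 0.0684). Of 21 matrix metalloproteinases and inhibitors the collagenase MMP13 was higher, at 8.18, 8.25, 8.04 and 8.19 in D4 against 7.58, 7.20 and 7.69 in A3 (0.68 ± 0.10 SE, adjusted p 5.82e-05).

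In signalling pathways single members differed. Of 31 genes of the BMP and TGF-beta pathways BMPR1B was lower, and the BMP antagonist noggin (NOG, 0.81 ± 0.16 SE), the inhibin subunit INHBB (0.57 ± 0.09 SE) and SMAD1 (0.32 ± 0.09 SE) were higher. Noggin read 8.72, 8.71 and 8.37 in A3 and 9.49, 9.38, 9.65 and 9.12 in D4. Of 25 genes of the EGF family and of MAPK feedback the ligand TGFA was higher (0.40 ± 0.10 SE) and ETV1 (-0.62 ± 0.10 SE), PHLDA1 (-0.39 ± 0.06 SE) and DUSP5 (-0.34 ± 0.10 SE) lower. Of 36 Wnt genes GPC4 (0.49 ± 0.10 SE) and the Wnt receptor antagonist RNF43 (0.50 ± 0.11 SE) were higher and TCF7L2, a Wnt-responsive transcription factor, lower (-0.49 ± 0.11 SE). None of 18 Notch genes was called (JAG2, 0.30, adjusted p 0.109).

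Of 30 chemokines and cytokines TGFB2 was higher. It read 5.95, 6.20 and 6.13 in A3 and 6.68, 7.08, 6.77 and 6.92 in D4 (0.77 ± 0.14 SE, adjusted p 0.00123). The neutrophil-attracting CXCL6 read 7.22, 7.17 and 7.11 in A3 and 6.34, 6.45, 6.48 and 6.46 in D4 (-0.74 ± 0.11 SE, adjusted p 7.5e-05), and CXCL1 was lower too (-0.46 ± 0.10 SE). The gap between the clones for CXCL6 was wider than the range of either. Of 17 NF-kappaB genes the feedback inhibitor TNFAIP3 was higher (0.46 ± 0.12 SE). Of 37 interferon-induced genes IFITM2 alone was called (-0.69 ± 0.11 SE, adjusted p 0.000222), and of 6 genes of MHC class I antigen processing none (ERAP2, -0.27, adjusted p 0.331).

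Among 20 neurotransmitter and other receptors CHRM3 and the GABA receptor subunit GABRE were lower and ADGRG2 higher (0.35 ± 0.08 SE). GABRE read 6.54, 6.66 and 6.60 in A3 and 5.91, 5.84, 5.99 and 6.01 in D4 (-0.66 ± 0.09 SE), and the clones were farther apart with CPA (-1.07 ± 0.08 SE), a change that did not pass (adjusted p 0.295). Of 21 ion channels KCNJ6, SCN3A, SCN2A (-0.77 ± 0.17 SE) and KCNMA1 (-0.30 ± 0.09 SE) were lower and CLCN4 higher (0.46 ± 0.11 SE). PDE3A was the only call among 16 phosphodiesterases, SERPINB7 among 11 clade B serpins, NTS among 14 neuroendocrine genes, and the transferrin receptor TFRC (-0.37 ± 0.11 SE) among 19 genes of iron and copper. Of 16 stem and progenitor genes SATB1 was higher and SOX2 lower (-0.41 ± 0.12 SE), and of 13 prostate lineage genes none was called (STEAP1, -0.41, adjusted p 0.216).

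Of 19 cancer/testis antigens PASD1, SSX1 (0.65 ± 0.12 SE) and MAGEA10 (0.37 ± 0.10 SE) were higher and MAGEC2 lower. MAGEC2 read 8.21, 7.55 and 7.91 in A3 and 7.04, 7.08, 7.12 and 6.95 in D4 (-0.85 ± 0.13 SE, adjusted p 0.000179), and with CPA it was not called (-0.28, adjusted p 0.134). The KRAB zinc finger genes clustered at 19p12, repressors that bind repeated DNA, held 3 higher members of 30, ZNF626, ZNF486 and ZNF492 (0.54 ± 0.15 SE), and a median of 0.20. With CPA 21 of them were higher, against 7.41% of all genes, and the median was 0.73. Their list mean was 5.75, 5.27 and 5.66 on the A3 arrays and between 5.72 and 6.02 on D4 replicates 1, 2 and 5, with replicate 4 lower, so the ranges overlapped. Again A3 replicate 2 and D4 replicates 1 and 4 were the lowest of their clones. Without these arrays 3 members were called higher, and ZNF492 was not (0.55, adjusted p 0.142). These genes are similar in sequence, and probes may read more than 1 of them. For D3 against A3 8 members were higher, against 1.30% of all genes, with a median of 0.39. For D4 against wt 1 was higher and 6 lower, against 9.22% and 10.9% of all genes, with a median of -0.17. Both share arrays with the main comparison.

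Xenografts hold host vessels, stroma and blood cells, whose RNA may hybridise to human probes, and in bulk tumours fewer cells of a type and less RNA per cell cannot be told apart. Of 92 measured genes in 8 lists of host cells 1 was called higher, PECAM1 (0.39 ± 0.10 SE), whose other probe set differed by -0.11 (adjusted p 0.883), and 2 lower, KDR (-0.55 ± 0.14 SE) and FBLN1 (-0.44 ± 0.10 SE). The list medians lay between -0.05 for adipocytes and 0.10 for endothelium. The members with the smallest p in the other lists were LYZ (-0.39, adjusted p 0.061, myeloid), CD8A (0.34, adjusted p 0.0728, lymphoid), AHSP (0.37, adjusted p 0.0618, erythroid), TTN (0.57, adjusted p 0.0782, muscle), LEP (0.18, adjusted p 0.407, adipocyte) and KRT25 (0.12, adjusted p 0.563, skin). The mean of the endothelial list ranged from 6.13 to 6.35 in A3 and from 6.14 to 6.31 in D4, and that of the fibroblast list from 6.25 to 6.43 and from 6.31 to 6.41. A3 replicate 2 was the highest A3 array in 8 of the 8 lists, and D4 replicate 1 the highest D4 array in 6.

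The called genes were spread unevenly over the chromosomes (placement by the RefSeq table of GRCh38.p14, 17290 genes, given as a description with no test). On chromosome 22, 3 of 401 measured genes were higher in D4 and 52 lower, which is 13.7% of them against 3.77% of all genes. With CPA 2 were higher and 104 lower. The median over this chromosome was -0.09 for D4 against A3 and -0.13 for D3 against A3. It was 0.09 for D4 against wt and 0.14 for A3 against wt, so the lower values were not particular to D4. Chromosome 16 had 56 higher and 2 lower of 723, and with CPA 122 and 11. Chromosome 6 had 40 and 2 of 799, and with CPA 217 and 11. Chromosome 11 leaned the other way, with 5 higher and 44 lower of 1175, and 27 and 110 with CPA. Without the 3 arrays apart on the first component the counts were 0 and 41 on chromosome 22, 26 and 2 on chromosome 16 and 21 and 2 on chromosome 6. In the fit of the 7 arrays alone they were 1 and 0, 3 and 0, and 3 and 0.

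**Figure D4:**
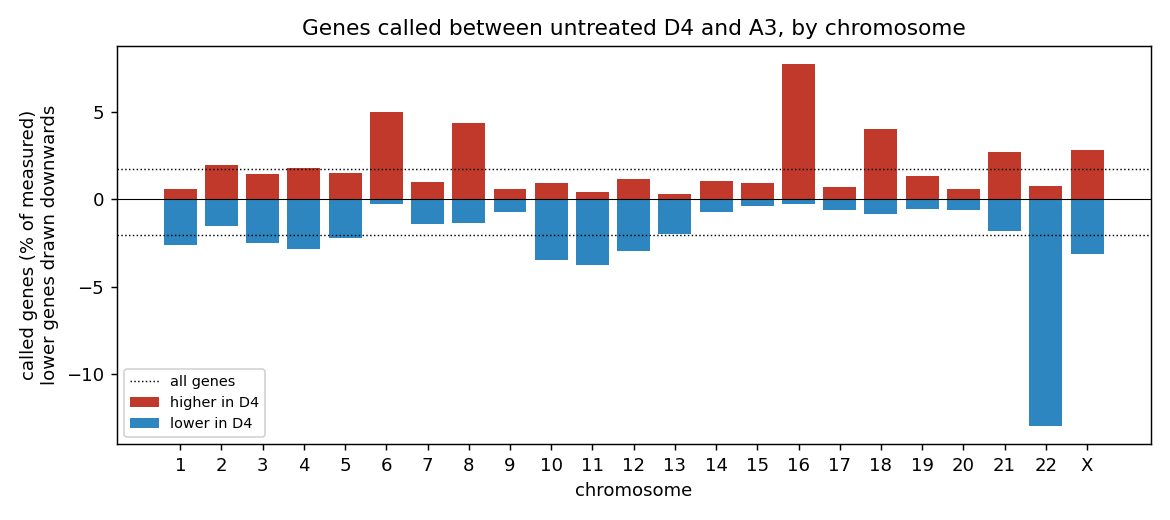
Share of the measured genes of each chromosome (x) that was called between untreated D4 and A3 (y, percent), with higher genes drawn upwards in red and lower genes downwards in blue; the dotted lines are the shares over all genes, 1.75% and 2.02%. The tallest bars are those of chromosome 16 upwards and chromosome 22 downwards.

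Neighbouring genes were called together in places, found as windows of 15 consecutive measured genes with at least 6 called in 1 direction. The longest stretch lay on chromosome 16. From NFATC3 to SF3B3 17 of 35 genes were higher, and from PHLPP2 to WDR59, a little further along, 8 of 16. Over the whole span from NFATC3 to WDR59 25 of 62 measured genes were called higher and 0 lower, 59 had a positive difference and the median was 0.25. All stretches and their ends were set by the untreated calls, so these untreated values are largely given by the choice. With CPA, in arrays not used for the choice, 39 of the 62 were higher and the median was 0.34, and 7.41% of all genes were higher. On the rest of the chromosome 31 of 661 were higher and 2 lower, with a median of 0.07. With CPA 83 of the 661 were higher and 11 lower, with a median of -0.01.

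Members of the chromosome 16 span do different things. The amino acid transporter gene SLC7A6 (0.66 ± 0.09 SE), CDH3 and AARS1, named above, lie within it, together with UTP4 (0.54), which acts in ribosome assembly, the osmotic stress factor NFAT5 (0.50), the clathrin adaptor subunit AP1G1 (0.49), the Golgi gene COG4 (0.44), the telomere protein TERF2 (0.37) and MLKL (0.32), which carries out necroptosis. The span's median was 0.19 for D3 against A3 and 0.32 for D4 against wt, values that share arrays with the main comparison. On chromosome 18 FECH, the last enzyme of haem synthesis, ATP8B1, NEDD4L, ZNF532, CCBE1 and PMAIP1 were higher among 15 genes, of which 11 were higher with CPA. On chromosome 22 KDELR3, FAM227A, CBY1, TOMM22, CBX6 and APOBEC3B were lower among 13, of which 6 were lower with CPA. SREBF2 lies in another stretch of chromosome 22, from L3MBTL2 to SREBF2, with 6 lower of 15. For D3 against A3 the medians were 0.32 from FECH to PMAIP1, -0.31 from KDELR3 to APOBEC3B and -0.24 from L3MBTL2 to SREBF2. For D4 against wt they were 0.06, -0.05 and 0.08.

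**Figure D5:**
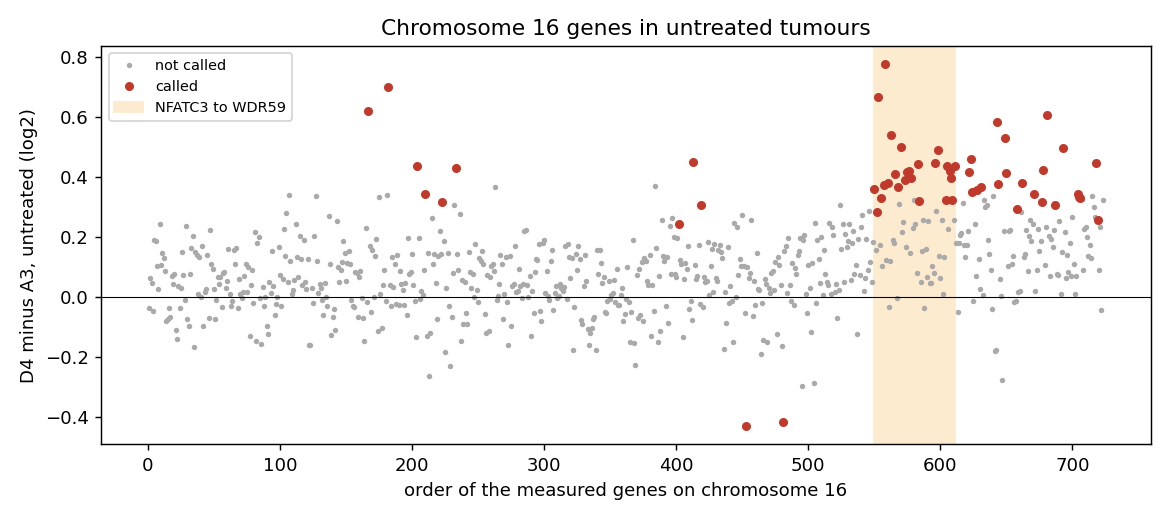
Difference between untreated D4 and A3 (y, log2) for the measured genes of chromosome 16 in their order along it (x), with called genes in red, others in grey and the span from NFATC3 to WDR59 shaded. In the span, whose ends were set by the called genes, 59 of 62 points lie above 0.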

How the data were processed

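The deposited table holds log2 expression values of 23989 probe sets on 31 arrays, made by the authors with RMA per the submitters' processing notes, without a version given in the sources used here. RMA corrects background, equalises the distributions of the arrays and condenses the probes of each set to 1 value, which narrows overall differences between arrays. The design text planned 32 arrays, and the 1 array of untreated A3 that the submitters left out as an outlier was not analysed here.

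Names came from the annotation of the array platform: 17624 probe sets had 1 symbol and were used, 411 had several and 5954 none. Where a gene had more than 1 set (276 genes) the brightest on average was used, giving 17314 genes, 17290 of them matched to RefSeq (GRCh38.p14) by Entrez number.

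Differences were tested with limma 3.58.1 (lmFit and eBayes, R 4.3.3) on 8 group means of all 31 arrays, with 23 residual degrees of freedom and Benjamini-Hochberg adjustment over all genes. The median residual SD was 0.148, and the number of arrays limits the precision. An exact permutation test of 4 against 3 arrays cannot go below p = 0.0571.

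The comparison, the 56 gene lists (1182 names, 1032 measured) and the naming rule were chosen with earlier results of these data known. Named genes were the 15 highest and 15 lowest among called genes without overlap of arrays, up to 4 called members of each list per direction or else the member with the smallest p, 3 per direction for the change with CPA and for D4 against D3, and the members of up to 4 runs of neighbours. KLK2, KLK3, KRT18, VIM, CD44, NTSR1, NTSR2 and ATF4 were named as markers or parts of a pathway after their values were seen, as was L3MBTL2. Alternatives covered the arrays fitted, the replicate block, the variance prior, array weights, normalization, dim genes, probe sets and single arrays. Another 3 were added after seeing the data: only the 4 groups of D4 and A3, leaving out 3 arrays, and a residual component as covariate.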

Additional observations from a re-analysis of the deposited data

Results flagged for a closer look

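In groups of 4 arrays of the named genes, the highest or lowest array was tested for standing apart from the others of its group. Of 306 sets of a gene and a group 17 passed the critical value, where chance gives about 1 in 20. Among untreated D4 arrays replicate 4 stood apart for ALDH2 (6.66), CRELD2 (7.77) and the receptor gene KDR (8.09). CRELD2 and KDR were highest there and ALDH2 lowest. Among CPA-treated D4 arrays replicate 5 was low for LSS (8.04), TP53I3 (8.73), CRELD2 (7.43), DSP (7.96), PROS1 (8.40), PDGFD (5.57) and MAGEA10 (6.89). Replicate 2 was high for PASD1 (7.53), BID (7.71) and RNF43 (6.37), and replicate 4 was high for ALDH18A1 (10.2) and low for PMAIP1 (8.72). In treated A3 replicate 4 was low for CDC20B (4.25) and high for KIF5C (7.90).

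Of 16 named genes that differed between the resistant clones by the limma test of D4 against D3, 15 were also called between D4 and A3. The other, ZNF711 (-1.67), was not. D4 exceeded D3 for F3 (1.52), PRSS35 (0.74), SRGN (0.72), MAGEC2 (0.68), ME1 (0.49) and PLAT (0.37). It was below D3 for ANKRD30A (-1.59), SERPINB7 (-0.98), PARP8 (-0.95), KIF5C (-0.88), KDR (-0.73), NAV3 (-0.56), CXCL6 (-0.49), PDE3A (-0.49) and GPC4 (-0.47). MAGEC2 and GPC4 lay between A3 and D3 in D4: MAGEC2 averaged 7.89 in A3, 7.05 in D4 and 6.36 in D3, and GPC4 5.54, 6.03 and 6.50.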

How the results depend on the processing

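The number of genes depended on which arrays set the spread, and the cause was not tested. Genes called between untreated D4 and A3, 653 in the main fit, were 67 with only the groups compared, 245 with only the 4 groups of D4 and A3, 429 without the 3 arrays apart, 1221 with the residual component as covariate and 1644 with array weights. Leaving out single arrays gave 281 to 799, the former without A3 replicate 4 and 368 without A3 replicate 1. For CPA-treated tumours the count, 2143, was 1088 with only the 4 groups, 4182 with the covariate and 4632 with weights. It was 1177 to 2670 without single arrays: 1177 without A3 replicate 1, and 1258, 1215 and 1326 without D4 replicates 1, 2 and 5. Genes called the same way in both, 440, were 65, 192, 752 and 897 with only the groups compared, only the 4 groups, the covariate and weights, and 231 (without untreated A3 replicate 4) to 546 without single arrays. For the change of the clone difference with CPA the count of 0 became 375 with weights, 1116 with the covariate, and 0 to 396 without single arrays (396 without A3 replicate 2, 3 without D4 replicate 2, both untreated). Between D4 and D3 the count of 56 was 22 with only the groups compared, 31 without the 3 arrays apart, 106 with weights and 228 with the covariate, and 35 to 63 without single arrays, with 35 and 37 without D3 replicates 2 and 5.

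With the replicate number as a block 573 genes were called in untreated and 1710 in treated tumours, 404 the same way, 0 for the change with CPA and 65 between D4 and D3. No pairing by number was seen: deviations of same-numbered A3 and D4 arrays correlated at -0.32, -0.63 and -0.14, and 0 of the 3 A3 arrays correlated best with its own number. Correlations of so few arrays cannot exclude a pairing.

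Over 127 named genes and 18 settings, 1883 values kept their direction and side of the threshold, 331 lost the call, 46 gained it and 3 changed sign. All 3 were of ZNF681, never called here, at -0.05 without D4 replicate 2, -0.02 without D4 replicate 5 and -0.12 without A3 replicate 2 (-0.12 to 0.22 without single arrays).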

Other observations

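Some genes with large loadings on the first principal component of the 7 arrays were named after their values were seen. Genes of the Y chromosome were left out of this ranking. The ends of the ranking also held genes that differed between the clones: NTS (loading -0.049), DHRS2 (0.028), PASD1 (0.021) and F3 (0.021). The component is thus not free of the difference between D4 and A3. MIR186 read 6.89, 4.37 and 6.19 on the A3 arrays (replicates 1, 2 and 4) and 5.30, 6.62, 4.52 and 6.58 on the D4 arrays (replicates 1, 2, 4 and 5). ZNF615 read 6.88, 5.71 and 6.87 in A3 and 5.82, 6.46, 5.19 and 6.40 in D4. In both genes the low arrays were A3 replicate 2 and D4 replicates 1 and 4, whichever the clone. The mucin gene MUC15 read 7.45, 6.07 and 7.46 in A3 and 6.24, 6.29, 5.25 and 6.32 in D4.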
